A study of Zea mays with 24 samples.

Results

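A set of 28 maize (*Zea mays*) genes whose leaf mRNA was lower under drought in each of 3 inbred lines is described here, out of 37467 genes listed in at least 1 of 24 RNA-seq libraries. The genes were chosen by measured values. In each of the inbreds W22, B104 and DH4866 the mean of the 2 drought libraries had to be lower than the mean of the 2 normal libraries by a log2 ratio of -1.5 or less. The level was CPM, the expected count of a gene per 1000000 expected counts of the library, with a pseudocount of 1 added to both means. The 12 wild-type libraries therefore fixed the direction in the inbreds, and their values are given as a description with no test. The 12 libraries of 3 lines made in these inbreds were not used in the choice, and the drought response was tested only in them. The filter on low counts and the spread were taken from all libraries of a set, wild types included. The standard errors and P values of the lines are therefore not fully independent of the choice.

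The first set of 8 libraries held the *zmnf-ya1* mutant, which carries a Mu transposon insertion in *ZmNF-YA1* (GRMZM2G000686) and was used as 1 line (m67), and its wild type W22. The second held *ZmNF-YB16* OE, maize overexpressing the NF-Y subunit gene *ZmNF-YB16* (line L187), and its wild type B104. The third held leaves labelled *ZmNF-YA1* OE and their wild type DH4866. The *ZmNF-YA1* OE lines of the study carry the gene behind the stress-responsive RD29A promoter of Arabidopsis, but its methods do not describe the RNA-seq samples of the DH4866 set. Every genotype had 2 libraries from drought-stressed plants and 2 from normally watered plants, and each library of the first and second sets was made from pooled leaves of 3 to 4 plants. The drought is described as lasting 5 d for the potted plants of the W22 set and for the B104 set. The labels give the V4 seedling stage for all samples, whereas the methods describe ear leaves of field-grown, flowering plants for the B104 set. Nothing states that the 2 libraries of a group came from separate batches of plants, so the P values measure the spread between these libraries only. No batch is recorded, and a batch that followed the watering cannot be told apart from drought.

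Libraries of the W22 and DH4866 sets held 20696448 to 21289711 expected counts and those of the B104 set 3429314 to 5608889, so low genes were measured less precisely in the B104 set. The study's methods name TRIzol extraction and a BGISEQ instrument for the W22 set, and another RNA extraction and an Illumina instrument for the B104 set. Differences between these sets cannot be told apart from effects of extraction and platform. The mesophyll marker PEP carboxylase (GRMZM2G083841) was high in the leaves of all sets, although in the B104 set its level was 1261 to 2396 CPM under drought, against 16985 to 19041 CPM under normal conditions. In the W22 set it was 19344 to 21596 CPM under drought, against 23243 to 24566 CPM. The 5 genes described as zein summed to at most 61.0 CPM and the 6 described as pollen allergens to at most 70.9 CPM in any library. The targeted gene *ZmNF-YA1* had 91 and 107 expected counts in *zmnf-ya1*, against 278 and 298 in W22, under normal conditions, and 110 and 102, against 121 and 145, under drought. The study reports no *ZmNF-YA1* transcripts in this mutant, whereas reads of the gene were counted here. Where in the gene they lay was not examined. The third set was compared in the same way. *ZmNF-YA1* had 278 and 260 counts in leaves labelled *ZmNF-YA1* OE, against 236 and 247 in DH4866, under normal conditions. Under drought it had 133 and 136, against 146 and 150. A rise of the transgene was therefore not visible under drought in the third line, whose libraries are called by their label. The level of *ZmNF-YB16* was not checked here.

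Water shortage slows leaf expansion and photosynthesis before it damages the leaf. Expansion needs water to enter the cell through plasma membrane aquaporins and new wall polymers to be laid down, and both processes are governed in part by auxin and by light-responsive transcription factors. NF-Y factors are trimers of A, B and C subunits that bind CCAAT boxes. In Arabidopsis and in maize several subunits have been linked to drought tolerance. Genes of some of these functions occur among the 28, namely an aquaporin, a wall polysaccharide synthase, an Aux/IAA repressor and a helix-loop-helix protein. By key words of the annotation, only 1 of the 28 each matched aquaporins, wall genes and auxin genes. The others include an ammonium transporter and a heat stress factor. In the deposited annotation 16 of the 28 are described only as uncharacterized, hypothetical or unknown proteins, of which some carry predicted terms.

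At the same threshold 992 genes were lowered in W22, 983 in B104 and 729 in DH4866. W22 and DH4866 had 370 such genes in common, W22 and B104 had 78, and B104 and DH4866 had 58. The least lowered of the 28 were GRMZM2G180452, a helix-loop-helix protein with a log2 ratio of -1.53 in DH4866, and GRMZM5G805232, an unknown protein with -1.501 in B104. Just outside lay GRMZM2G137891, an uncharacterized protein with -1.49 in B104 and -5.79 in W22, and GRMZM2G050730, described as a pop3 peptide, with -1.49 in DH4866. Among the inbreds, B104 had the log2 ratio nearest to 0 for 14 of the 28 genes, and the median log2 ratio was -1.80 in B104, -2.51 in W22 and -2.51 in DH4866. Genes named after genomic clones are written differently in the B104 set and could not be matched, so none of them could enter the set.

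Under normal conditions the genes spanned a wide range of levels per transcript length. GRMZM2G074546, with the cellulose synthase terms of the annotation, had the highest mean over the inbreds, 154 FPKM, and GRMZM2G574534, an uncharacterized protein, the lowest, 1.96 FPKM (fragments scaled to transcript length and to depth). The normal CPM of the 28 ranked alike in W22 and DH4866, with a Spearman's rho of 0.95 across genes, and less so in W22 and B104, with 0.66. In B104 5 genes were at least 3 times as high as in both other inbreds and 3 were at least 3 times lower. These genes share libraries within a set, and genes are not independent replicates.

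**Figure D1:**
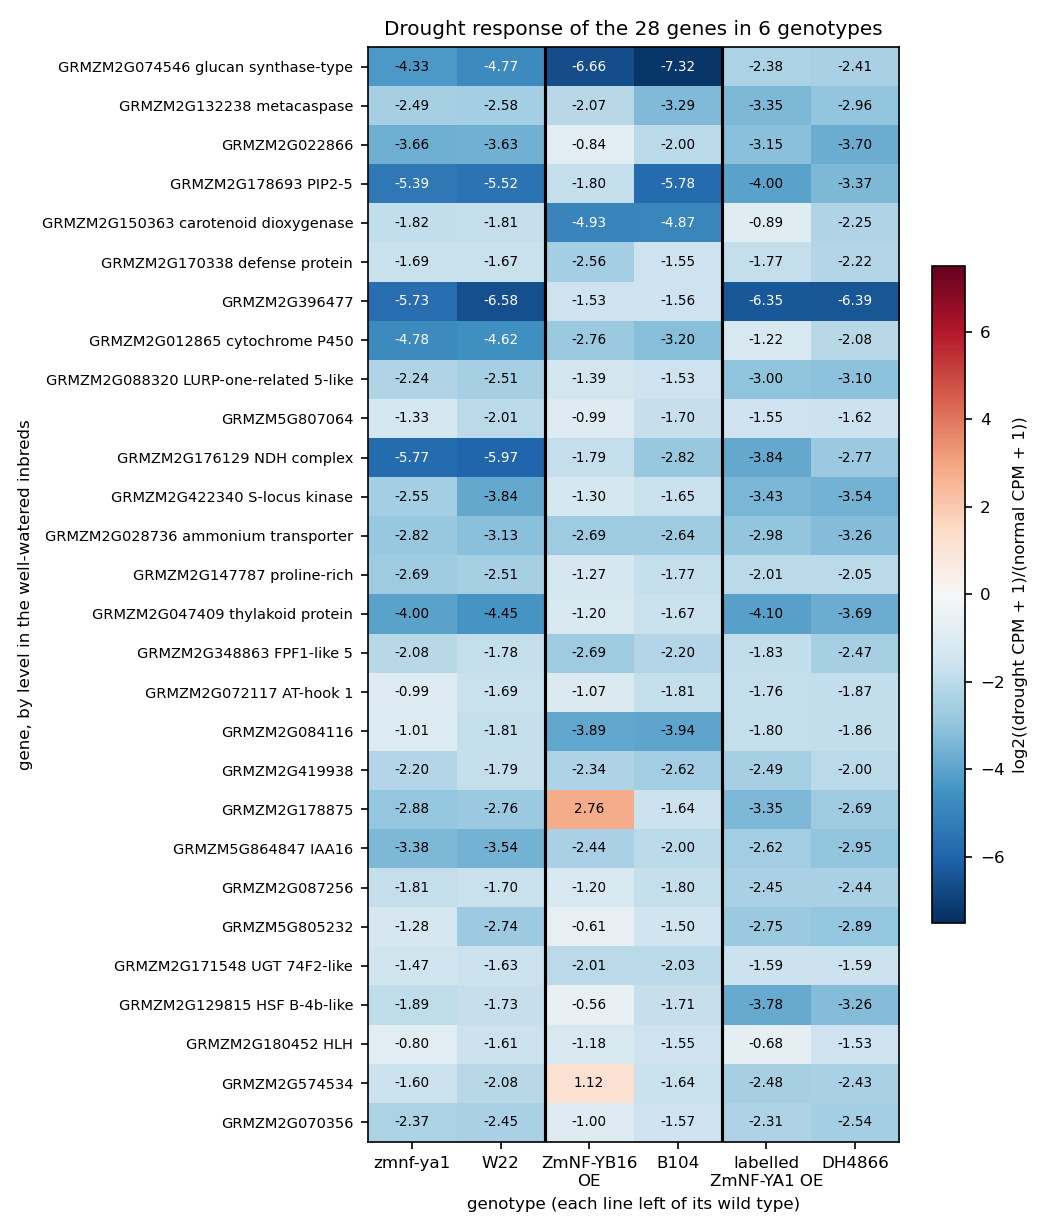
Log2 of the drought over normal level (CPM with a pseudocount of 1, means of 2 libraries per group) of the 28 genes in rows, ordered by their CPM in the normally watered inbreds, for the 6 genotypes in columns, each line left of its wild type. Blue marks lower and red higher under drought. The 3 wild-type columns are at -1.5 or less by the way the genes were chosen, and the red cells are GRMZM2G178875 at 2.76 and GRMZM2G574534 at 1.12 in *ZmNF-YB16* OE.

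All 28 genes passed the filter on low counts in each of the 3 lines and were tested with the other genes of their set, by edgeR's quasi-likelihood test with Benjamini-Hochberg adjustment over all genes. A gene was called when its log2 fold change, drought over normal, was above 1 or below -1 with an adjusted P below 0.05. In *zmnf-ya1* 28 of the 28 genes fell and 0 rose, whereas 13.2% of all 24159 genes tested fell and 12.1% rose. In *ZmNF-YB16* OE 25 fell and 1 rose, beside 11.9% and 11.3% of 21970 genes. In leaves labelled *ZmNF-YA1* OE 27 fell and 0 rose, beside 12% and 12.2% of 24604 genes. Of the 28 genes 24 fell in all 3 lines, and the share of all genes that did so was not counted.

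The median log2 fold change of the 28 genes was -3.29 in *zmnf-ya1*, -1.90 in *ZmNF-YB16* OE and -3.10 in leaves labelled *ZmNF-YA1* OE, whereas the median of all genes tested was 0.01, 0.00 and -0.01. In *zmnf-ya1* and in the labelled line 4 genes each had 0 counts in both drought libraries, and their fitted fold changes depend on the prior count. With these genes set to the bound that 3 counts per library allow, the medians were -3.24 and -3.10. A fall of 4-fold or more was fitted for 24 genes in *zmnf-ya1*, 13 in *ZmNF-YB16* OE and 20 in the labelled line. Among all genes tested, large falls were also rarer in *ZmNF-YB16* OE. Log2 fold changes from -5 to -4.75 held 0.157%, 0.0728% and 0.118% of genes in the same order of lines. Those from -2.25 to -2 held like shares, 0.82%, 0.81% and 0.80%. Across the 28 genes the fold changes in *zmnf-ya1* and the labelled line had a Spearman's rho of 0.67, those in *zmnf-ya1* and *ZmNF-YB16* OE one of -0.09, and those in the labelled line and *ZmNF-YB16* OE one of -0.42. The order of the falls thus differed between the B104 set and the other 2 sets. The B104 set also differs in inbred and depth, and from the W22 set in RNA extraction and sequencing platform. By the methods, though not by the labels, it differs from the W22 set in plant stage and growing conditions too. These cannot be told apart.

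The wild-type and line values of a set come from different libraries, but the wild types were used in the choice and their values are pushed down by it. In CPM, 10 of the 28 log2 ratios were lower in *zmnf-ya1* than in W22, 5 were lower in *ZmNF-YB16* OE than in B104 and 9 were lower in the labelled line than in DH4866. These counts are therefore no measure of a weaker response in the lines. With library size alone in place of TMM scaling, the median of all genes moved by 0.22 in *zmnf-ya1* and by 0.25 in *ZmNF-YB16* OE on the log2 scale. The share of lower genes among all calls was then 39.8% in *zmnf-ya1* and 35.1% in *ZmNF-YB16* OE, in place of 52.1% and 51.3%. The 28 genes of *zmnf-ya1* were all called lower under both scalings. In *ZmNF-YB16* OE 25 were called lower with TMM scaling and 23 with library size alone.

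**Figure D2:**
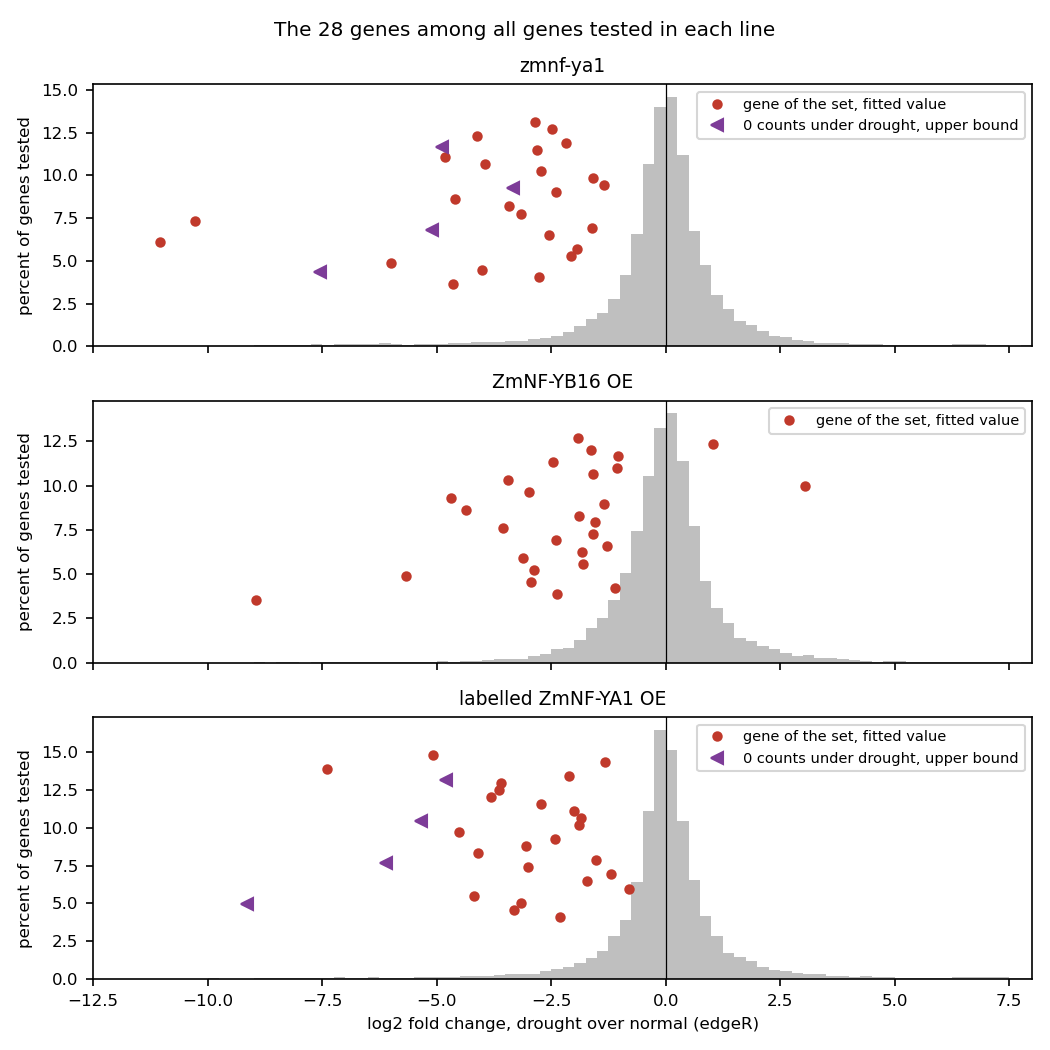
Log2 fold change under drought (x axis) of all genes tested in each line (grey bars, percent of genes per bin of 0.25) and of the 28 genes (red points, fitted by edgeR, and purple triangles, the upper bound for genes with 0 counts in both drought libraries). The height of a point has no meaning. All points of *zmnf-ya1* and of the labelled line lie left of 0, and in *ZmNF-YB16* OE 2 points lie to the right.

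GRMZM2G178693 encodes PIP2-5, a plasma membrane aquaporin that lets water into and out of cells, known in maize above all from roots. Its level was 3.10 and 3.38 CPM in *zmnf-ya1* under drought, against 189 and 164 CPM under normal conditions (log2 fold change -6.00, SE 0.13, adjusted P = 6.2e-13). In the labelled *ZmNF-YA1* OE leaves it was 4.08 and 5.13 CPM, against 90.5 and 86.9 CPM (log2 fold change -4.18, SE 0.11, adjusted P = 2.7e-13). In *ZmNF-YB16* OE it was 1.18 and 0.593 CPM, against 5.63 and 5.52 CPM (log2 fold change -2.93, SE 0.36, adjusted P = 8.4e-07), so the gene fell in all 3 lines without overlap of the groups. *ZmNF-YB16* OE differed in its normal level, since B104 had 1.70 and 2.50 CPM under drought and 159.5 and 179 CPM under normal conditions. The W22 libraries had 3.33 and 3.13 CPM under drought and 203 and 183 CPM under normal conditions, and those of DH4866 9.27 and 8.31 CPM and 105 and 95.5 CPM. PIP2 genes are similar in sequence, and the expected counts of this gene were fractional, so part of its reads was shared with other genes.

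GRMZM2G074546 carries the terms of a cellulose synthase or mixed-linked glucan synthase, enzymes that make polysaccharides of the growing grass wall. It had 14.8 and 14.2 CPM under drought in *zmnf-ya1*, against 316 and 308 CPM (log2 fold change -4.65, SE 0.08, adjusted P = 9.8e-14). In *ZmNF-YB16* OE it had 2 and 1 expected counts, or 0.365 and 0.194 CPM, under drought, against 129.8 and 127 CPM. There the normal level was 456 times the drought level in summed counts per depth, with a counting interval of 156 to 2214 (95%, exact). The labelled line had 69.5 and 68.4 CPM, against 372 and 354 CPM (log2 fold change -2.31, SE 0.07, adjusted P = 2.1e-12), and the groups did not overlap in any of the 3 lines. The inbreds had 12.1 and 11.1 CPM in W22, 1.65 and 0.939 CPM in B104 and 76.4 and 70.0 CPM in DH4866 under drought. All expected counts of this gene were whole numbers.

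GRMZM2G028736 is annotated as an ammonium transporter of the Amt family, which carries ammonium across the plasma membrane. It fell in all 3 lines. Under drought it had 11.1 and 9.51 CPM in *zmnf-ya1*, against 81.6 and 75.6 CPM (log2 fold change -3.16, SE 0.10, adjusted P = 1.9e-11). It had 2.37 and 0.581 CPM in *ZmNF-YB16* OE, against 14.2 and 15.8 CPM, and 7.54 and 6.39 CPM in the labelled line, against 62.3 and 61.3 CPM. Its log2 ratios lay close together, between -2.64 and -3.26 in the inbreds and between -2.69 and -2.98 in the lines.

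**Figure D3:**
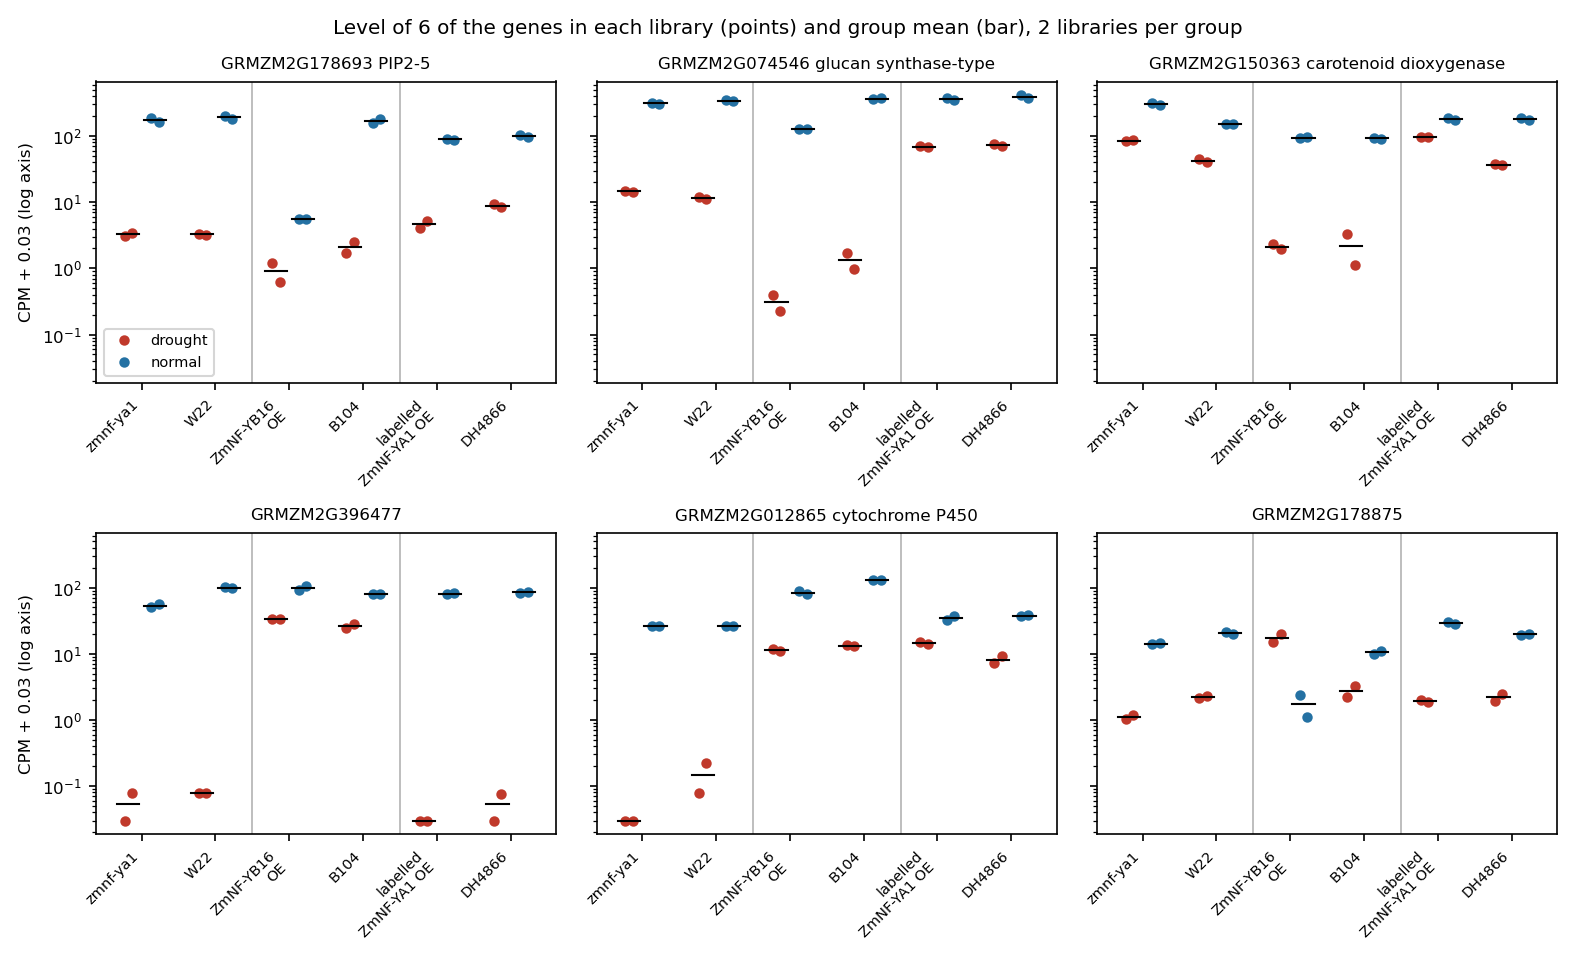
Level of 6 of the genes (CPM plus 0.03, log axis) in each library (points) with the group mean (bar), drought in red left of normal in blue, for each line left of its wild type. PIP2-5 under normal conditions is lower in *ZmNF-YB16* OE than in the other 5 genotypes. GRMZM2G396477 lies at 0 or 1 count in all 8 drought libraries of the W22 and DH4866 sets, and GRMZM2G178875 is higher under drought in *ZmNF-YB16* OE only among the 6 genotypes.

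Proteins with chloroplast or redox terms formed another part of the set. GRMZM2G150363 is annotated as a carotenoid dioxygenase of plastoglobules, and the study's annotation gives the carotenoid-cleaving CCD4 of Arabidopsis as its counterpart. The gene also carries the term 9-cis-epoxycarotenoid dioxygenase, an enzyme of abscisic acid synthesis, and which term holds was not examined. Its level was 84.2 and 86.0 CPM in *zmnf-ya1* under drought, against 313 and 291 CPM (log2 fold change -2.06, SE 0.07, adjusted P = 5.4e-11). It was 2.30 and 1.90 CPM in *ZmNF-YB16* OE, against 91.9 and 94.97 CPM (log2 fold change -5.67, SE 0.17, adjusted P = 2.8e-16). The labelled line had 97.1 and 97.6 CPM under drought, against 187 and 174 CPM, and was the only gene of the set not called there (log2 fold change -0.80, SE 0.06, adjusted P = 5.3e-08), since its fold change missed the limit although the groups did not overlap. DH4866 had 38.0 and 36.0 CPM under drought and 184 and 176 CPM under normal conditions, so the drought libraries of the labelled line lay above those of its wild type, and the normal libraries overlapped. W22 had 44.3 and 40.4 CPM under drought and 149.8 and 151 CPM under normal conditions, below *zmnf-ya1* in both.

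GRMZM2G176129 carries the terms of the thylakoid NAD(P)H dehydrogenase complex, which feeds electrons back to plastoquinone around photosystem I, and CRR23 is named as its Arabidopsis counterpart. In *zmnf-ya1* it had 0.0531 and 0.0504 CPM, about 1 count in each drought library, against 55.9 and 57.1 CPM. The normal level was 1092 times the drought level, with a counting interval of 329 to 9838. In the labelled line it had 3.03 and 3.76 CPM, against 60.2 and 63.6 CPM, and in *ZmNF-YB16* OE 2.35 and 2.71 CPM, against 12.7 and 9.72 CPM. W22, with 0.101 and 0.101 CPM under drought, was as low as its mutant, whereas DH4866 had 7.87 and 8.85 CPM. The near loss of this mRNA was thus seen in the W22 set and not in the other 2 sets.

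GRMZM2G047409, an uncharacterized thylakoid protein with electron transfer terms, also carries process terms of fatty acid beta-oxidation and lipid homeostasis. It had 3.10 and 3.42 CPM in *zmnf-ya1* under drought, against 74.5 and 60.2 CPM (log2 fold change -4.60, SE 0.14, adjusted P = 1.6e-11). In *ZmNF-YB16* OE the gene had 2.89 and 0.0930 CPM, against 4.05 and 5.40 CPM (log2 fold change -1.89, SE 0.61, adjusted P = 0.0139). This call was lost with DESeq2 and without either of 2 libraries of the line, normal replicate 2 (log2 fold change -1.71) and drought replicate 2 (-0.92). GRMZM2G022866, an uncharacterized protein with disulfide oxidoreductase and glutathione terms, is also matched to a subunit of the anaphase-promoting complex. It had 9.08 and 11.8 CPM in *zmnf-ya1* under drought, against 143 and 145 CPM. In *ZmNF-YB16* OE it had 63.5 and 61.7 CPM, against 107 and 119 CPM (log2 fold change -1.10, SE 0.08, adjusted P = 6.0e-10), beside 31.6 and 34.4 CPM in B104 under drought, and with library size alone this call was lost (log2 fold change -0.85). The labelled line had 15.1 and 14.3 CPM, against 148 and 129 CPM.

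Enzymes of other kinds fell as well. GRMZM2G012865, a cytochrome P450 of the monooxygenase superfamily that oxidizes many secondary metabolites, had 0 counts in both drought libraries of *zmnf-ya1*, against 26.6 and 26.5 CPM, and was at least 186-fold lower (floor of 3 counts per library, 0.142 CPM). W22 was close to this, with 0.0477 and 0.191 CPM under drought and 26.5 and 26.6 CPM under normal conditions. In the labelled line it had 14.8 and 13.9 CPM, against 32.3 and 37.2 CPM (log2 fold change -1.19, SE 0.09, adjusted P = 4.3e-08), and in DH4866 7.19 and 9.09 CPM, against 37.4 and 37.9 CPM. In *ZmNF-YB16* OE it had 11.9 and 11.04 CPM, against 88.3 and 78.6 CPM (log2 fold change -3.12, SE 0.11, adjusted P = 1.7e-15).

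GRMZM2G132238 is described as a metacaspase, a class of cysteine proteases tied to programmed cell death in plants. It fell to 27.8 and 30.0 CPM in *zmnf-ya1*, against 169 and 165 CPM, to 17.9 and 14.5 CPM in *ZmNF-YB16* OE, against 69.0 and 73.4 CPM, and to 26.4 and 27.7 CPM in the labelled line, against 290.2 and 281 CPM. GRMZM2G170338, with terms of glutamine metabolism and peptidase activity, had log2 fold changes of -1.94 in *zmnf-ya1*, -2.87 in *ZmNF-YB16* OE and -1.72 in the labelled line, with standard errors of 0.07 to 0.10. GRMZM2G171548 resembles the UDP-glycosyltransferase 74F2, an enzyme that in Arabidopsis joins glucose to salicylic acid. It fell to 1.42 and 1.71 CPM in *zmnf-ya1*, against 6.11 and 6.09 CPM, and its log2 fold changes of -2.18, -2.47 and -2.12 in *zmnf-ya1*, *ZmNF-YB16* OE and the labelled line lay within 0.35 of each other.

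Signalling proteins and regulators of transcription made up the next part. GRMZM2G422340, described as an S-locus receptor-like kinase of the plasma membrane, had 0 counts in all 8 drought libraries of the W22 and DH4866 sets and 94 to 286 counts in their 8 normal libraries. It was at least 34.2-fold lower under drought in *zmnf-ya1* and at least 68.7-fold lower in the labelled line. In the B104 set it stayed detected, with 27.4 and 28.9 CPM under drought in *ZmNF-YB16* OE, against 73.9 and 67.2 CPM (log2 fold change -1.58, SE 0.10, adjusted P = 3.2e-11). Its normal level was also higher there, since W22 had 13.7 and 12.9 CPM and B104 126 and 131 CPM. GRMZM2G088320, a LURP-one-related protein of a family named after a pathogen-induced gene of Arabidopsis, fell, with log2 fold changes of -2.54, -1.83 and -3.02 in *zmnf-ya1*, *ZmNF-YB16* OE and the labelled line.

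GRMZM5G864847 encodes IAA16, an Aux/IAA protein that holds back auxin response factors until auxin triggers its breakdown, and is listed in RefSeq as BIF4, known from maize inflorescence development. It had 0.806 and 0.570 CPM in *zmnf-ya1* under drought, against 18.2 and 15.01 CPM (log2 fold change -4.81, SE 0.21, adjusted P = 3.9e-10). It had 1.46 and 0.537 CPM in *ZmNF-YB16* OE, against 7.28 and 12.4 CPM, and 0.707 and 0.692 CPM in the labelled line, against 8.83 and 10.05 CPM. The drought libraries of all 6 genotypes lay at or below 1.46 CPM, and the normal libraries between 6.61 and 18.2 CPM.

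GRMZM2G129815 resembles the heat stress transcription factor B-4b, of a class that lacks the activation domain of the A class. In the labelled line it had 0.0463 and 0.0947 CPM, 1 and 2 counts, under drought, against 14.0 and 13.3 CPM, a ratio of 194 with a counting interval of 65.6 to 937. In *zmnf-ya1* it had 0.254 and 0.253 CPM, against 3.12 and 4.18 CPM (log2 fold change -4.13, SE 0.31, adjusted P = 9.7e-08). In *ZmNF-YB16* OE the groups overlapped, with 2.45 and 1.21 CPM, against 1.56 and 4.76 CPM, and the difference was not called (log2 fold change -1.03, SE 0.53, adjusted P = 0.117), although without normal replicate 1 of the line it was (log2 fold change -1.66). B104 had 0.979 and 2.07 CPM under drought and 6.96 and 7.58 CPM under normal conditions.

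GRMZM2G180452, a helix-loop-helix protein listed with the phytochrome-interacting factors that promote elongation growth in Arabidopsis, was low in the W22 and DH4866 sets. The gene was higher in B104, at 11.6 and 9.61 CPM under normal conditions. It had 0.237 and 0.238 CPM in *zmnf-ya1* under drought, against 0.853 and 1.46 CPM (log2 fold change -2.48, SE 0.42, adjusted P = 2.0e-04), and 4.01 and 2.91 CPM in *ZmNF-YB16* OE, against 8.73 and 9.53 CPM. In the labelled line it had 0.754 and 0.379 CPM, against 1.48 and 1.55 CPM (log2 fold change -1.32, SE 0.36, adjusted P = 0.00607), a call lost without drought replicate 2 (log2 fold change -0.91). The AT-hook protein GRMZM2G072117, of a family that binds AT-rich DNA, fell, with log2 fold changes of -1.35, -1.36 and -1.85 in *zmnf-ya1*, *ZmNF-YB16* OE and the labelled line. GRMZM5G807064, with terms of histone acetylation and transcription cofactors, fell as well (-1.61, -1.27 and -1.53). GRMZM2G348863 resembles flowering-promoting factor 1, a small protein that hastens flowering in mustard and Arabidopsis, and fell too (-2.39, -4.35 and -1.89).

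The genes with no described function included the one with the widest range. GRMZM2G396477 had 0 or 1 count in each of the 8 drought libraries of the W22 and DH4866 sets and 1056 to 2104 counts in each of their 8 normal libraries. In the labelled line both drought libraries were at 0 and the gene was at least 569-fold lower, from 78.7 and 82.6 CPM under normal conditions. In *zmnf-ya1* the summed counts were 1 under drought and 2259 under normal conditions, a ratio of 2250 with a counting interval of 403 to 88912. In the B104 set the same gene was still detected under drought, with 33.2 and 33.5 CPM in *ZmNF-YB16* OE, against 91.1 and 105 CPM (log2 fold change -1.81, SE 0.09, adjusted P = 1.0e-12), and 24.6 and 27.99 CPM in B104, against 80.2 and 78.4 CPM. The 12 normal libraries of the 3 sets lay between 50.0 and 105 CPM, lowest in *zmnf-ya1*, at 50.0 and 56.8 CPM, against 100.7 and 98.2 CPM in W22. The drought libraries of the B104 set lay above all those of the other sets. Of 11291 genes with over 100 counts in all 8 normal libraries of the W22 and DH4866 sets, 22 had at most 3 counts in each of the 8 drought libraries, this gene among them.

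GRMZM5G805232 and GRMZM2G070356 were also at 0 in all 8 drought libraries of the W22 and DH4866 sets, but with only 29 to 150 and 71.8 to 103.6 counts in the normal libraries. Their falls were at least 10.05-fold and 29.4-fold in *zmnf-ya1*, and at least 40.5-fold and 27.8-fold in the labelled line. In *ZmNF-YB16* OE GRMZM5G805232 had 1.81 and 1.90 CPM under drought, against 2.82 and 3.87 CPM (log2 fold change -1.07, SE 0.38, adjusted P = 0.0234), and GRMZM2G070356 had 0.547 and 0.969 CPM, against 2.55 and 2.46 CPM (log2 fold change -1.91, SE 0.58, adjusted P = 0.0087). Both of these calls were lost with DESeq2, and the first with library size alone (-0.82). They were also lost without drought replicate 1 of the line, at log2 fold changes of -1.04 and -1.57, and the first was lost without drought replicate 2 (-1.09) or normal replicate 2 (-0.86), the second without normal replicate 1 (-1.88).

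GRMZM2G084116, an uncharacterized protein, fell most in the B104 set, to 1.64 and 2.32 CPM in *ZmNF-YB16* OE, against 45.1 and 41.2 CPM (log2 fold change -4.69, SE 0.20, adjusted P = 4.1e-14), and had log2 fold changes of -1.59 and -1.99 in *zmnf-ya1* and the labelled line. GRMZM2G419938 fell by about the same in *zmnf-ya1*, *ZmNF-YB16* OE and the labelled line, with log2 fold changes of -2.71, -2.98 and -2.72, and those of GRMZM2G087256 were -2.81, -1.60 and -3.60. GRMZM2G147787, which resembles a basic proline-rich protein, had -3.42, -1.55 and -2.41. Its level was higher in the B104 set, with 27.0 and 26.1 CPM in *ZmNF-YB16* OE under drought, against 65.3 and 65.3 CPM, beside 1.88 and 2.15 CPM and 19.3 and 17.7 CPM in *zmnf-ya1*.

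GRMZM2G178875 and GRMZM2G574534 were higher under drought in *ZmNF-YB16* OE, and lower under drought in the other 5 genotypes. GRMZM2G178875, an unknown protein with the term defense response, had 15.1 and 19.6 CPM under drought in *ZmNF-YB16* OE, against 2.32 and 1.08 CPM, and rose (log2 fold change 3.03, SE 0.31, adjusted P = 6.1e-08). B104 had 2.201 and 3.19 CPM under drought, against 9.91 and 11.1 CPM, and neither pair of groups overlapped. The gene fell in *zmnf-ya1*, with 0.996 and 1.14 CPM against 13.8 and 14.6 CPM (log2 fold change -3.95, SE 0.14, adjusted P = 5.4e-11), and in the labelled line, with 1.98 and 1.85 CPM against 29.8 and 27.8 CPM (log2 fold change -3.82, SE 0.12, adjusted P = 3.5e-12). GRMZM2G574534, an uncharacterized membrane protein, had 7.80 and 10.8 CPM in *ZmNF-YB16* OE, against 4.67 and 2.78 CPM, and was not called (log2 fold change 1.04, SE 0.44, adjusted P = 0.057). It was called with library size alone (log2 fold change 1.29, adjusted P = 0.0172), without the filter on low counts (1.05, adjusted P = 0.00322) and without any 1 of the 4 B104 libraries (1.03 to 1.04, adjusted P = 0.0172 to 0.0257), so the call depends on these settings. It fell in *zmnf-ya1* and the labelled line, with log2 fold changes of -2.85 and -5.09. The difference between *ZmNF-YB16* OE and B104 was not tested, since B104 had been used in the choice of the genes.

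Each line was then set against its own wild type under the same watering, as a description. Under normal conditions 24 of the 28 genes were within 2-fold of W22 in *zmnf-ya1*, 3 were lower and 1 was higher, and under drought all 28 were within 2-fold, on the scale of log2(CPM + 1). On that scale a gene below 1 CPM in both genotypes cannot differ by 2-fold, and GRMZM2G422340, GRMZM5G805232 and GRMZM2G070356 were at 0 in both under drought. As plain ratios of CPM under drought, GRMZM2G047409, GRMZM2G574534 and GRMZM2G150363 were 2.67, 2.31 and 2.01 times higher in *zmnf-ya1*, and GRMZM2G178875 was 2.05 times higher in W22, with no overlap of the groups. GRMZM2G396477 and GRMZM2G012865 had 0 to 4 counts in each drought library of the W22 set, so no ratio is given for them. Under normal conditions GRMZM2G180452 was 2.83 times higher in W22 as a plain ratio. GRMZM2G150363 was the higher gene, at 302 ± 15.7 CPM in *zmnf-ya1* and 151 ± 1.19 CPM in W22 (SD, n = 2 each). GRMZM2G422340, GRMZM2G084116 and GRMZM5G805232 were lower, for example 4.87 ± 0.591 CPM in *zmnf-ya1* and 13.3 ± 0.555 CPM in W22 for GRMZM2G422340. In *zmnf-ya1* 91.0% of all genes tested were within 2-fold of W22 under normal conditions, and 98.5% under drought.

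In *ZmNF-YB16* OE 5 genes were at least 2-fold lower than in B104 under normal conditions, 0 were higher and 23 were within 2-fold, beside 89.4% of all genes tested within 2-fold. PIP2-5 (GRMZM2G178693) differed most, at 5.58 ± 0.0792 CPM in *ZmNF-YB16* OE and 169 ± 13.9 CPM in B104 (SD, n = 2 each), 30.4 times higher in B104. GRMZM2G074546 was 128 ± 2.01 CPM in *ZmNF-YB16* OE and 366 ± 10.6 CPM in B104. The others were GRMZM2G348863, GRMZM2G178875 and GRMZM5G805232. Under drought 25 of the 28 genes were within 2-fold of B104, near the share of all genes tested, 89.9%. GRMZM2G178875 and GRMZM2G574534 were then higher in *ZmNF-YB16* OE. GRMZM2G348863 was lower, at 0.912 and 0 CPM in *ZmNF-YB16* OE and 4.03 and 3.19 CPM in B104. As plain ratios under drought GRMZM2G074546, PIP2-5 and GRMZM5G805232 were also 4.64, 2.37 and 2.29 times higher in B104, and GRMZM2G171548 was 2.19 times higher in *ZmNF-YB16* OE. Under normal conditions GRMZM2G129815 was 2.301 times higher in B104 as a plain ratio.

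In the labelled *ZmNF-YA1* OE leaves all 28 genes were within 2-fold of DH4866 under normal conditions and 26 were under drought, beside 98.8% and 99.0% of all genes tested. The exceptions under drought were GRMZM2G150363, 97.3 ± 0.353 CPM in the labelled line and 37.0 ± 1.38 CPM in DH4866, and GRMZM2G176129, 3.40 ± 0.514 CPM in the labelled line and 8.36 ± 0.689 CPM in DH4866 (SD, n = 2 each). As a plain ratio GRMZM2G180452 was also 2.09 times higher in DH4866 under normal conditions. With 2 libraries against 2, a two-sided exact permutation test of a single value cannot give a P below 0.333, and none was run.

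**Figure D4:**
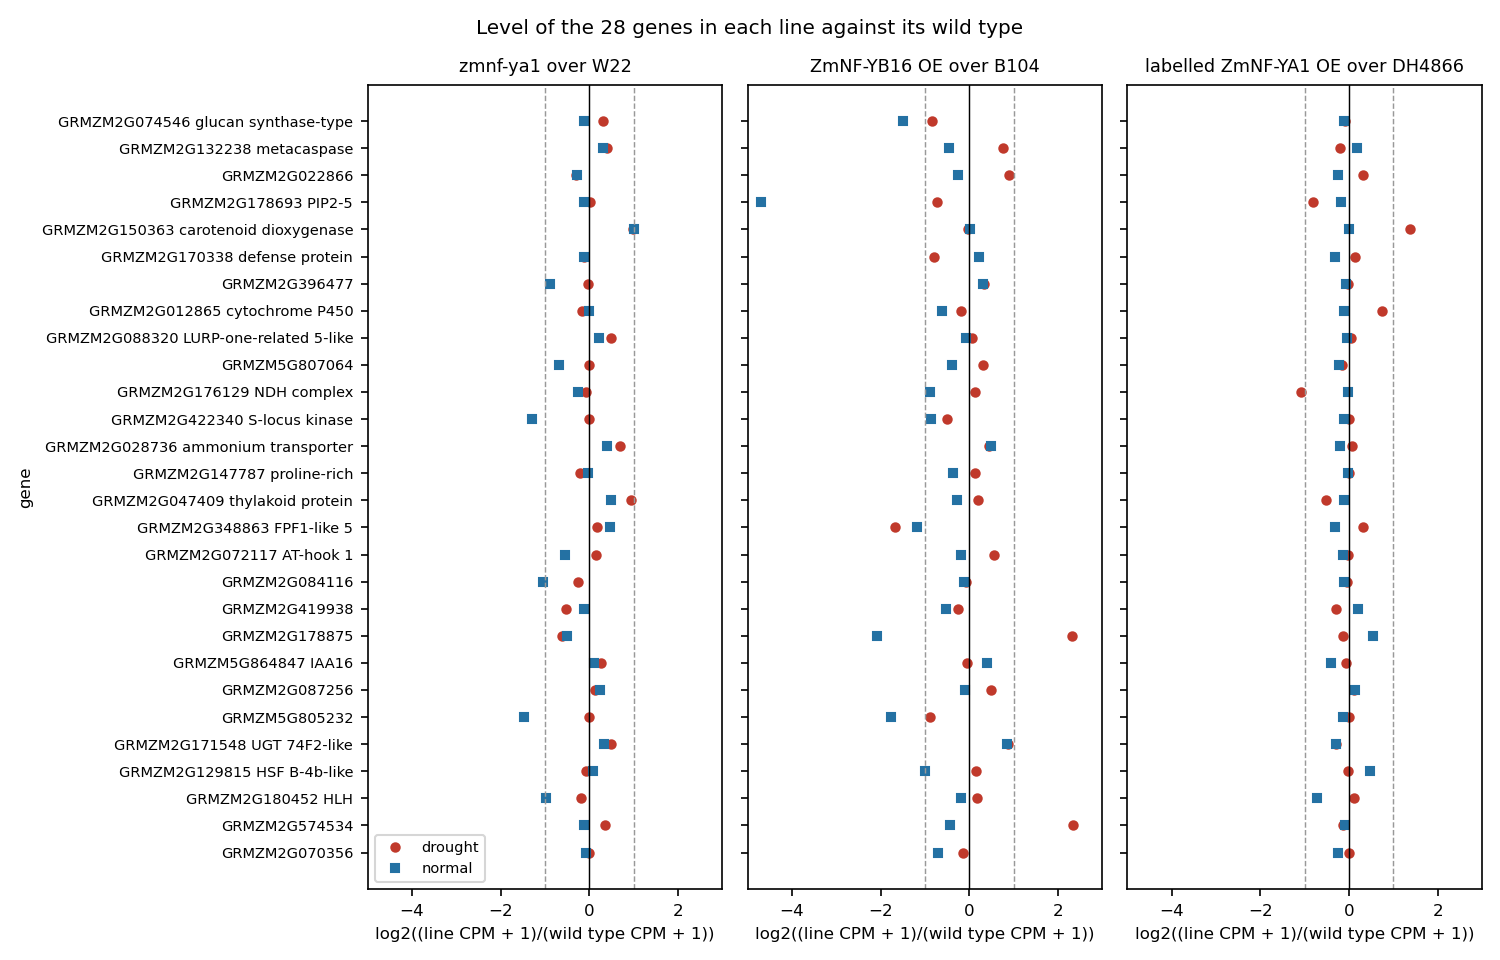
Log2 of the level in each line over that in its wild type (CPM with a pseudocount of 1, means of 2 libraries) for the 28 genes, under drought (red circles) and normal conditions (blue squares). Dashed lines mark 2-fold. In the labelled *ZmNF-YA1* OE panel the normal points all lie within 2-fold, whereas PIP2-5 in *ZmNF-YB16* OE lies at -4.69 under normal conditions.

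The wider families of the named genes were counted by key words in the deposited annotation. Of the aquaporin genes tested, 14 of 48 fell and 4 rose in *zmnf-ya1*, 7 of 30 fell and 3 rose in *ZmNF-YB16* OE, and 14 of 47 fell and 7 rose in the labelled line, and PIP2-5 fell in all 3. Of the cytochrome P450 genes 42 of 154 fell and 27 rose in *zmnf-ya1*, 31 of 132 fell and 24 rose in *ZmNF-YB16* OE, and 40 of 157 fell and 25 rose in the labelled line. The median log2 fold change of both families lay between -0.26 and 0.01 in the 3 lines, so PIP2-5 and the P450 gene GRMZM2G012865 lay below the middle of their families in each line. Genes of auxin response showed 23 of 144 lower and 22 higher in *zmnf-ya1*, 24 of 113 lower and 14 higher in *ZmNF-YB16* OE, and 25 of 150 lower and 25 higher in the labelled line. Wall genes showed 35 of 186 lower and 53 higher in *zmnf-ya1*, 25 of 126 lower and 18 higher in *ZmNF-YB16* OE, and 35 of 189 lower and 53 higher in the labelled line, so that the fall of GRMZM2G074546 was not the direction of most wall genes called in *zmnf-ya1* and the labelled line. Genes of nitrogen uptake and assimilation showed 15 of 64 lower and 11 higher in *zmnf-ya1*, 11 of 58 lower and 13 higher in *ZmNF-YB16* OE, and 9 of 64 lower and 10 higher in the labelled line. Among receptor-like kinases, the family of GRMZM2G422340, 68 of 461 were lower and 77 higher in *zmnf-ya1*, 47 of 383 lower and 70 higher in *ZmNF-YB16* OE, and 75 of 480 lower and 80 higher in the labelled line. Among transcription factors, with GRMZM2G129815, the counts were 162 of 1384 lower and 163 higher, 126 of 1162 lower and 176 higher, and 174 of 1391 lower and 172 higher, in the same order of lines. Clock and photoperiod genes, with GRMZM2G180452, had 6 of 125 lower and 8 higher, 21 of 109 lower and 5 higher, and 6 of 123 lower and 14 higher. Other membrane transporters, with GRMZM2G028736, had 114 of 717 lower and 73 higher, 85 of 654 lower and 124 higher, and 99 of 719 lower and 90 higher. The list of histones matched GRMZM2G180452 through a second term of its annotation, and 26.5%, 19.2% and 18.1% of its genes tested were lower. Transcription factors in *zmnf-ya1* and *ZmNF-YB16* OE (11.7% and 10.8% lower) and clock genes in *zmnf-ya1* and the labelled line (4.80% and 4.88%) lay below the shares of all genes that fell.

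None of the 28 genes matched the list of photosystem genes, which is given for the state of the leaves. In *ZmNF-YB16* OE 61 of 87 fell and 0 rose, in *zmnf-ya1* 15 of 96 fell and 3 rose, and in the labelled line 5 of 95 fell and 8 rose. The carbonic anhydrase of mesophyll cells (GRMZM2G121878) had 266 to 400.1 CPM under drought in the B104 set, against 4234 to 4364 CPM under normal conditions, and 6520 to 7162 CPM under drought in the W22 set, against 7693 to 8392 CPM. These markers moved with drought in the B104 set beside the 28 genes, and their part in the result was not tested. In bulk leaf RNA, fewer cells of a type and less RNA per cell cannot be told apart.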

How the data were processed

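RNA-seq of 24 maize leaf libraries was analysed in 3 sets of 8, with 2 libraries in each of 12 groups taken from the sample labels. The expected counts that the authors deposited per gene are RSEM estimates without scaling between libraries. Before that step, SOAPnuke had cleaned the reads and Bowtie2 had placed them on the B73 gene models. The authors also deposited FPKM, in which genes below 0.01 were not listed. A gene missing from a library was taken as 0. RSEM divides reads that fit several genes: 24 of the 28 genes had fractional expected counts in some library (tolerance 0.01), and their levels are uncertain to that extent. Totals were 20696448 to 21289711 expected counts per library in the W22 and DH4866 sets and 3429314 to 5608889 in the B104 set. The reads carry no molecular identifiers, so floors (3 counts) and intervals (95%, exact binomial) cover counting error only. The libraries of each group differed beyond sampling noise (chi-square per degree of freedom 1.33 to 4.74).

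The 28 genes and all lists were chosen with earlier results of these data known. Expected counts were rounded, and each set was fitted in R 4.3.3 with edgeR 4.0.16 (filter on low counts by group, TMM, quasi-likelihood test). The model had 4 groups and no replicate block, and P values were adjusted by the Benjamini-Hochberg method over all genes tested. Calls needed an adjusted P below 0.05 together with a log2 fold change above 1 or below -1. Each SE or standard error given is the absolute log2 fold change divided by the square root of the test's F statistic. It is not a fitted standard error and is too small where drought counts are few. For GRMZM2G396477 in *zmnf-ya1*, with 1 drought count, it is 0.21 on the log2 scale, beside a counting interval of 403- to 88912-fold. The procedure was run on simulated data with the same spread for every gene and equal means in all groups, apart from the changed genes. That is simpler than these data, so the run is only a check of the code. Genes were named by a rule: the 5 highest under normal conditions, those with the largest and smallest responses per line, those nearest the threshold, and annotated transcription factors. The other members were added so that each is accounted for. Of 22 key word lists, those used here covered aquaporins, cytochrome P450, auxin response, wall, nitrogen and photosystem genes. They also covered receptor-like kinases, transcription factors, clock and photoperiod genes, other membrane transporters and histones. RefSeq entries were found for 20 of the 28 genes. Alternatives were library size alone, RLE scaling, testing without the filter, a replicate block, DESeq2 1.42.0, limma 3.58.1 on log2(FPKM + 1), an adjusted P of at most 0.001, other thresholds and pseudocounts for the choice of genes, and each library left out. Promoter motifs were not analysed here. Tables and figures were made with Python 3.11.15, numpy 2.4.6, pandas 2.3.3, scipy 1.17.1 and matplotlib 3.10.9.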

Additional observations from a re-analysis of the deposited data

Results flagged for a closer look

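GRMZM2G178875 moved in opposite directions in a line and its wild type. Its log2 ratio of drought over normal was 2.76 in *ZmNF-YB16* OE and -1.64 in B104, and in both genotypes every drought library lay on one side of every normal library. GRMZM2G574534 showed the same pattern, with 1.12 in *ZmNF-YB16* OE and -1.64 in B104, at 13 to 56 expected counts per library in *ZmNF-YB16* OE and 0 to 24 in B104. Neither difference was tested, because the B104 libraries had been used to choose the genes.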

How the results depend on the processing

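The choice of genes moved with its settings. A threshold of -1 gave 126 genes and one of -2 gave 8, a pseudocount of 0.5 gave 45 and one of 5 gave 9. TMM-scaled CPM gave 34 genes, of which 26 were among the 28, and FPKM gave 27, of which 25 were. Leaving out 1 wild-type library gave 23 to 30 genes, the fewest without B104 drought replicate 1. The numbers of genes called lower kept within 1.5 times, at 26 to 28 in *zmnf-ya1*, 21 to 25 in *ZmNF-YB16* OE and 26 to 27 in the labelled *ZmNF-YA1* OE leaves, and leaving out 1 library gave 28, 23 to 25 and 26 to 27. The median response moved beyond the median standard error with limma on log2(FPKM + 1), to -2.23, -1.54 and -2.53 in the same order of lines, where low genes are compressed by the pseudocount, and with library size alone to -3.06 in *zmnf-ya1* and -1.66 in *ZmNF-YB16* OE. Leaving out 1 library gave medians of -3.51 to -3.19, -2.24 to -1.90 and -3.18 to -3.01. No direction of a gene in a line was reversed. With limma GRMZM2G180452 was not called in any line, nor GRMZM2G072117 in *zmnf-ya1*, nor GRMZM5G807064, GRMZM2G022866 and GRMZM5G805232 in *ZmNF-YB16* OE. No source states that replicate numbers pair libraries, and the deviations of same-numbered libraries had correlations of -0.02 to 0.10. With the number as a replicate block the counts of lower genes were 28, 25 and 27 and the medians -3.29, -1.92 and -3.10, and GRMZM2G574534 in *ZmNF-YB16* OE passed the limits (log2 fold change 1.00, adjusted P = 0.0495), while no other call changed. The depth of the B104 set limits genes below about 1 CPM, which there had a handful of counts.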
